A study of Mus musculus with 36 samples.

Results

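The 9 genes described here act where DNA is damaged: the translesion polymerases Polh, Polk, Poli, Rev1 and Rev3l, the nucleotide excision repair genes Ercc5, Xpc and Ddb2, and Rrm2b, which supplies deoxynucleotides. They were taken by symbol from the deposited table of 27179 mouse genes, in which all 9 were found, and all 9 passed the filter on low counts. The cells were 3 mouse B lymphoma lines named AH47A, 287 and 621, all of Em-myc background, in which a Myc transgene is driven by an immunoglobulin enhancer. Each line carried a negative control construct or a mutant TRP53 protein, labelled G280, I192S, R246Q, R270H or V170M, and the design text describes these proteins as human and the TRP53 of the cells as wild type. Each was sampled untreated or after 12 hours of 5 µM nutlin-3a, a small molecule that frees p53 from its inhibitor MDM2. The nutlin cultures also received 25 µM QVD-OPH, a broad caspase inhibitor, and the sources used here do not say whether untreated cultures had it, so the effects of both agents cannot be told apart. There were 36 libraries, and each of the 12 construct and treatment groups had 1 from every line (n = 3). The labels name no separate cultures of a line, so p-values measure the spread between these libraries, and results hold for these 3 lines.

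Translesion polymerases copy DNA across lesions that stop the replicative polymerases, at the price of lower fidelity. Polh, Polk, Poli and Rev1 are Y-family enzymes, Rev1 also serves as a scaffold for the others, and Rev3l is the catalytic subunit of polymerase zeta. In nucleotide excision repair Ddb2 and Xpc recognise the lesion and Ercc5 (XPG) cuts the damaged strand on its 3′ side. Rrm2b encodes a p53-inducible small subunit of ribonucleotide reductase. In human cells DDB2, XPC, POLH and RRM2B are known p53 target genes, whereas mouse Ddb2 has been described as lacking the p53 element of the human gene.

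Library totals ranged from 5404113 to 10718302 counts. The median total was 8472640 over 18 untreated libraries, and 7364608 over 18 treated with nutlin. All 8 B lineage markers had a mean above 1 CPM, the read count scaled to the TMM-normalised library size, with a summed level of 2906 to 5464 CPM over the libraries. Among them Vpreb1 ranged from 0 to 97.4 CPM. The summed T cell markers reached at most 21.8 CPM and the myeloid markers at most 58.5 CPM, and Cd4, Trbc1 and Elane were at 0 in all libraries. The highest single markers of these lists were Zap70, at up to 21.7 CPM, and Itgam, at up to 49.3 CPM. Cdkn1a, the p53 target that encodes p21, went from 4.18 ± 2.72 to 413 ± 186 CPM (mean ± SD, n = 3) in the control lines, and Trp53 counts under nutlin were higher in each of the 5 mutants than in the control within every line. Reads of the mouse gene and of a construct are not separated in these counts. Untreated counts assigned to mouse Trp53 also differed, with a log2 value of 2.32 for the 5 mutants averaged, less the control (standard error 0.22, edgeR adjusted p = 7.8e-06). The design text calls the mutant proteins human, and whether the constructs carry human or mouse sequence was not tested.

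The upstream sequences of the genes that moved most, and of Polh, which moved the other way, are given first. The RefSeq promoter table of GRCm38.p6 held 4 of the 9 genes: Polk, Polh, Ercc5 and Rev1. Shown 5′ to 3′ on the gene's strand are the bases before the start site that carry no exon annotated in GENCODE and no neighbouring gene. The printed Ercc5 stretch lies within the RefSeq span of the gene, before an inner start. Capitals mark a CCAAT box on either strand or a p53 decamer, the unit that occurs as a pair in a full p53 element.
Ercc5, inner start within the gene, plus strand, chr1:44147494-44147743: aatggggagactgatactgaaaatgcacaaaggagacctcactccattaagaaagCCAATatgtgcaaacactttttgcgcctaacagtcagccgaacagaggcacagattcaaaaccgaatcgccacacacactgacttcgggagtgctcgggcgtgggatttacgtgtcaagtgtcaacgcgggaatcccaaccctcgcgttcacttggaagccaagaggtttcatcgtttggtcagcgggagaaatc
Polk, inner start within the gene, minus strand, chr13:96519188-96519437: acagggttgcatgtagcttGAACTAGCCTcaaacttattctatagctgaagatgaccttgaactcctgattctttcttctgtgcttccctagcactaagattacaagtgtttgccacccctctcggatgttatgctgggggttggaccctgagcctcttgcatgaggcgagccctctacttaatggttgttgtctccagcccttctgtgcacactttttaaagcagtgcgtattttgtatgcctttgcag
Polk, outer start, minus strand, chr13:96542645-96542708: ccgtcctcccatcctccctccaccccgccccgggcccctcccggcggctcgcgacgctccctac
Polh, minus strand, chr17:46202646-46202781: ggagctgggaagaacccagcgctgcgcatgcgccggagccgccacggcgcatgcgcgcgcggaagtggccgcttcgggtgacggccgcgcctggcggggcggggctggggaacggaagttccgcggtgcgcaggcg
The search covered both strands of each 300-base window, 250 bases before to 50 after a start. A p53 decamer was in the window of the inner Polk start and in 8.36% of all 32851 promoters of that length. A full p53 element, with its decamers at most 13 bases apart, was in none of the windows of these 4 genes and in 0.0731% of all promoters. CCAAT was in the Ercc5 window and in 37.4% of all promoters. CACGTG was in the Rev1 window and in 7.15% of all promoters. These are matches of letters in a short window and describe no binding.

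Before treatment, the 9 genes were expressed at levels that differed widely per length. Given as CPM per kilobase of the deposited gene length (mean ± SD, n = 18 untreated libraries), Polh was highest at 43.9 ± 4.74 and Rev1 followed at 17.2 ± 1.19. Xpc at 11.8 ± 0.986, Poli at 10.9 ± 1.09, Rev3l at 9.07 ± 0.626 and Rrm2b at 8.85 ± 1.91 came next, and the ranges of neighbours in this order overlapped. Polk at 5.81 ± 0.640, Ercc5 at 4.28 ± 0.887 and Ddb2 at 2.79 ± 1.05 were the lowest. After nutlin the order per length was headed by Ercc5 at 36.5 ± 21.7, then Polh at 33.1 ± 6.21 and Polk at 25.5 ± 12.6, which overlapped in spread. Rev1 then stood at 21.7 ± 4.15, Poli at 18.2 ± 6.65, Rrm2b at 15.8 ± 4.53, Xpc at 10.7 ± 1.23, Rev3l at 9.90 ± 1.02 and Ddb2 at 5.03 ± 2.13 CPM per kilobase. Ercc5 thus moved from the eighth to the first place and Polk from the seventh to the third. The spread under nutlin includes the differences between lines and constructs described below.

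After nutlin, given with QVD-OPH, Ercc5 and Polk rose most in the control lines. Rrm2b, Ddb2, Poli, Rev1 and, by little, Rev3l also rose, and Polh fell. Of the 9 genes, 7 rose, 1 fell and Xpc did not pass the test, beside 53.7% of all 12321 genes called in this comparison (26.9% higher, 26.8% lower). The median response of the 9 was log2 0.86, against -0.02 over all genes tested. The 9 genes and the lists below were chosen with earlier results of these data known. Their contrasts with all genes are therefore descriptions. A response here is the log2 ratio of nutlin to untreated, as estimate ± standard error, from edgeR's quasi-likelihood test with Benjamini-Hochberg adjustment over all genes, and a call is an adjusted p under 0.05. In bulk RNA a change in the RNA per cell and a change in the mix of cells cannot be told apart. All adjusted p below are from edgeR unless another tool is named. Where libraries or ranges are said not to overlap, the share of all genes without overlap was not counted.

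Ercc5, the 3′ nuclease of excision repair, was at 16.6, 20.5 and 14.2 CPM in the untreated control libraries of AH47A, 287 and 621, and at 188, 353 and 136 CPM after nutlin. No nutlin library overlapped an untreated one, and the rise was 12.4-fold (3.64 ± 0.20, adjusted p = 2.5e-13). Polk, a translesion polymerase that bypasses bulky minor groove adducts, stood at 21.7, 23.9 and 24.6 CPM untreated and at 125, 203 and 100.4 CPM after nutlin in the same order of lines. Its rise was 5.96-fold (2.58 ± 0.17, adjusted p = 3.0e-12).

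Rrm2b was at 36.5, 52.4 and 31.4 CPM before and 67.9, 94.9 and 84.9 CPM after nutlin in the control of AH47A, 287 and 621 (1.07 ± 0.13, adjusted p = 7.9e-08). Line 287 started highest, and all 3 nutlin values were above all 3 untreated ones. Ddb2, the small subunit of the UV-damage binding complex, went from 2.29, 6.38 and 7.95 CPM to 5.66, 15.6 and 12.2 CPM (1.02 ± 0.17, adjusted p = 1.4e-05). Its ranges overlapped across lines, since AH47A after nutlin was below the other lines untreated, and these values rest on 121 counts untreated and 248 after nutlin in all 3 libraries. Without strand information Ddb2 counts are uncertain, because its annotated span shares 2554 bases with Acp2, whose own control response was 0.68 ± 0.27 (adjusted p = 0.036).

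Poli, a Y-family enzyme of low fidelity, was at 28.6, 30.5 and 27.1 CPM untreated and at 35.1, 75.4 and 54.2 CPM after nutlin (0.86 ± 0.12, adjusted p = 1.2e-06). The rise was small in AH47A and large in 287. Rev1 was at 76.9, 70.7 and 68.4 CPM before and at 120.2, 137 and 101 CPM after nutlin, again with no overlap (0.72 ± 0.09, adjusted p = 4.7e-08). Rev1 likewise shares 2794 bases with Eif5b, whose control response was -0.15 ± 0.06 (adjusted p = 0.043). Rev3l was at 102.5, 91.0 and 89.5 CPM and at 109.7, 117 and 102.1 CPM, so the groups overlapped (0.21 ± 0.07, adjusted p = 0.016). Its span shares 447 bases with the long noncoding gene E130307A14Rik, whose control response was 1.06 ± 0.27 (adjusted p = 0.0014), so without strand information its counts are uncertain too. The Rev3l call did not hold without line 287 (0.16, adjusted p = 0.25) or 621 (0.22, adjusted p = 0.069), or without the nutlin library of AH47A (0.20, adjusted p = 0.054) or the untreated library of 621 (0.20, adjusted p = 0.065). Nor did it hold with line as an additive block (0.21, adjusted p = 0.091) or with only the control libraries in the fit (0.22, adjusted p = 0.25).

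Polh, the polymerase that copies past UV-induced thymine dimers, was at 114.1, 96.3 and 126 CPM untreated and at 90.8, 59.3 and 86.9 CPM after nutlin. Every nutlin value was below every untreated value, and Polh fell by 0.52 ± 0.07 on the log2 scale (adjusted p = 4.8e-07). Xpc, the lesion sensor, was at 42.8, 43.2 and 42.1 CPM and at 34.2, 43.0 and 45.3 CPM (-0.08 ± 0.10, adjusted p = 0.54). Its nutlin values lay below, at and above the untreated ones. Without a block for line, 4 of the 9 genes were called in the control (8 with it), beside 1423 over all genes (6618 with it). Polh (adjusted p = 0.12), Poli (adjusted p = 0.096), Rev3l (adjusted p = 0.26) and Ddb2 (adjusted p = 0.28) lost their calls.

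**Figure D1:**
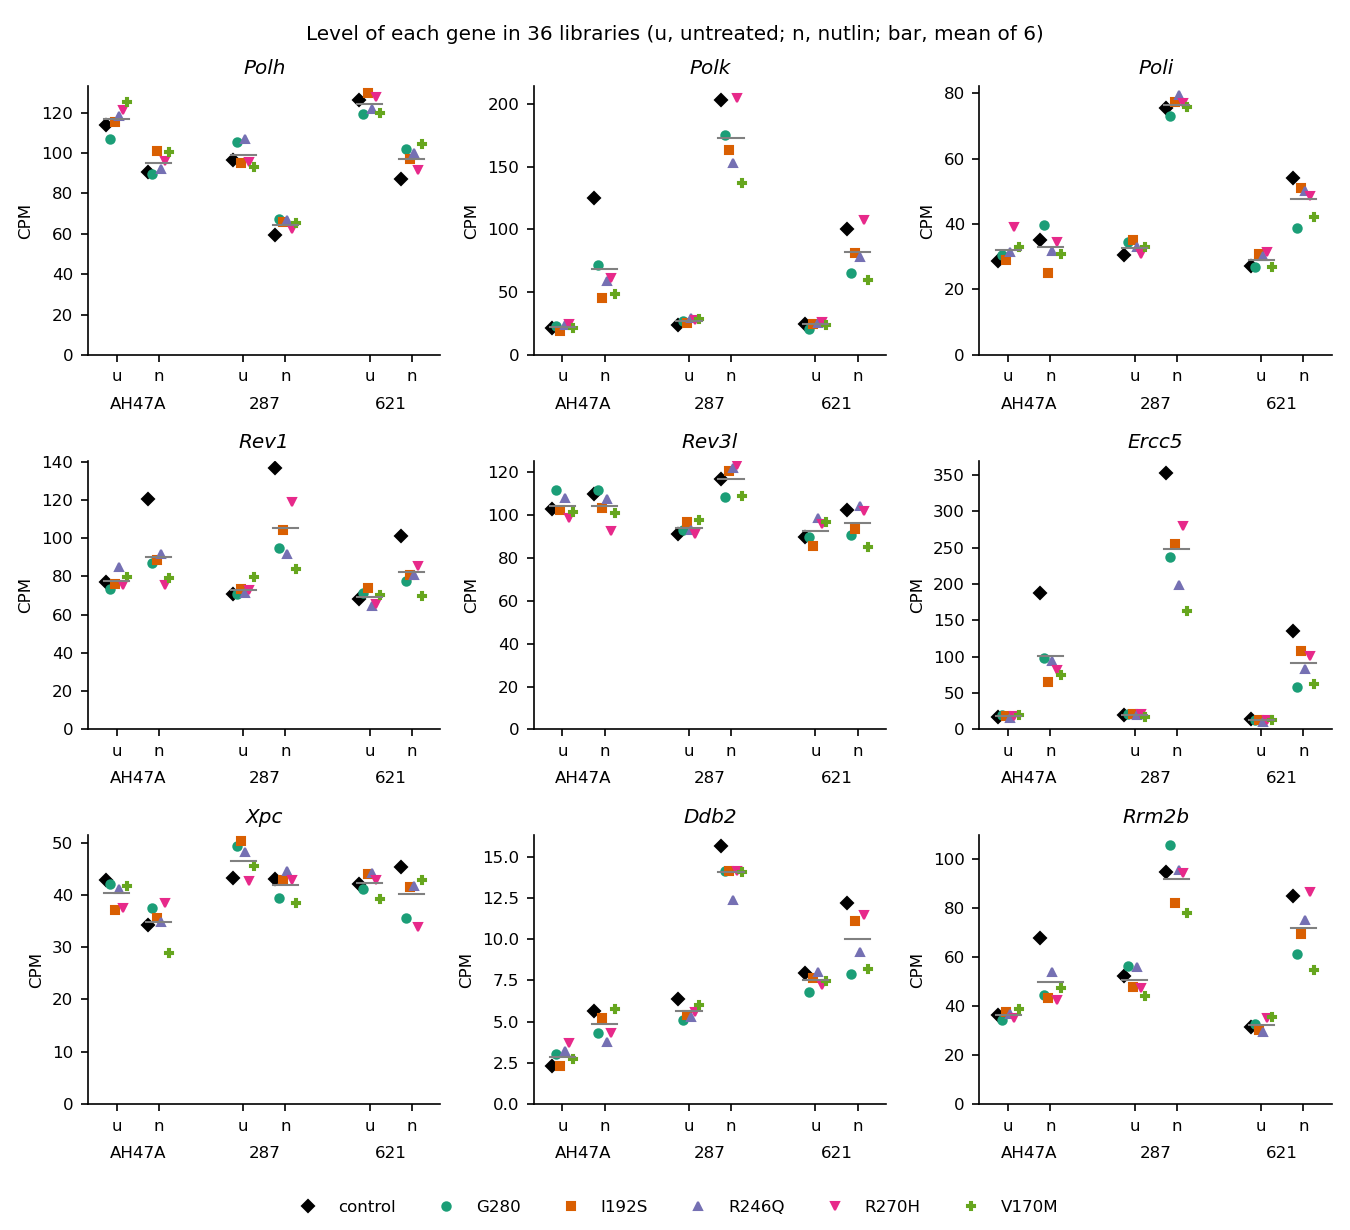
Level in CPM (y axes, linear, from 0) of the 9 genes in all 36 libraries, by line and treatment (u, untreated; n, nutlin), with 1 marker per construct and a bar at the mean of 6. Ercc5 and Polk separate by treatment in every line, and the control (black diamond) is the highest nutlin marker for Ercc5 in all 3 lines, at 188, 353 and 136 CPM.

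The responses of close neighbours, picked after their values had been seen, are given beside those of the 9 genes, and the differences between neighbours were not tested. Polk lies head to head with Cert1 (listed as Col4a3bp), 129 bases apart in the RefSeq annotation, and the Cert1 response in the control was 0.12 ± 0.10 (adjusted p = 0.35). Xpo5, 169 bases from Polh, had a response of -0.15 ± 0.06 (adjusted p = 0.033). Next to Xpc, Tmem43 (841 bases away) rose by 1.95 ± 0.13 (adjusted p = 2.1e-12) and Lsm3 (146 bases away) fell by 0.60 ± 0.11 (adjusted p = 5.4e-05) on the log2 scale. The positions of the genes with the largest responses are chr1:44146948-44181260 for Ercc5 and chr13:96480687-96542579 for Polk, both in GRCm38 coordinates.

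Averaged over 6 constructs and 3 lines all 9 genes were called, 7 higher and 2 lower, beside 71.7% of all genes (34.3% higher). The mean response was 2.92 ± 0.08 for Ercc5, 1.99 ± 0.07 for Polk, 0.82 ± 0.07 for Ddb2, 0.81 ± 0.05 for Rrm2b, 0.66 ± 0.05 for Poli, 0.32 ± 0.03 for Rev1 and 0.12 ± 0.03 for Rev3l. Xpc fell by 0.15 ± 0.04 and Polh by 0.42 ± 0.03. Without line 287 neither Rev3l (0.04, adjusted p = 0.43) nor Xpc (-0.13, adjusted p = 0.073) was called. With a mutant construct, 7 of the 9 genes were called with G280, I192S, R246Q and R270H and 6 with V170M, beside 37.2%, 41.6%, 39.6%, 45.3% and 29.2% of all genes in that order. Ercc5, Polk, Rrm2b, Ddb2, Poli and Polh were called with each of the 5 mutants, and Rev3l and Xpc with none. With line as an additive block Poli lost its call with all 5 mutants (adjusted p from 0.058 to 0.14), Rrm2b with V170M (adjusted p = 0.060), Ddb2 with R246Q (adjusted p = 0.11) and Rev1 with G280, I192S and R246Q (adjusted p from 0.058 to 0.096). Without line 287 the count was 3 with G280, 4 with R246Q and R270H and 2 with V170M. Over all genes it was then 821, 1851, 2633 and 517 for these 4 mutants. Without a block for line, 2 of the 9 were called with each mutant but V170M, which had 1. All genes called without the block were 168, 245, 205, 400 and 68 with G280, I192S, R246Q, R270H and V170M. In 18 library pairs of the same line and construct, Ercc5 rose in 18 of 18, by 1.82 to 4.09 on the log2 scale, and Polk rose in 18 of 18, by 1.15 to 3.07.

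Line 287 gave the largest response of 7 of the 9 genes. In the mean of 6 constructs, 7 genes were called in AH47A, 8 in 287 and 7 in 621, beside 43.6%, 71.9% and 55% of all genes. The F test for a different response in the 3 lines called 8 of the 9 genes, all but Xpc (adjusted p = 0.51), beside 60.3% of all genes. Ercc5 rose 5.28-fold, 11.8-fold and 6.90-fold in AH47A, 287 and 621 (3.56 ± 0.13 in 287 and 2.79 ± 0.14 in 621 on the log2 scale), and Polk rose by 1.56 ± 0.12, 2.66 ± 0.11 and 1.74 ± 0.12. Over all genes, 46.9% differed in response between 287 and AH47A and 31.6% between 621 and AH47A. Both genes responded more in 287 than in AH47A (Ercc5 by 1.16 ± 0.19, adjusted p = 1.7e-05; Polk by 1.10 ± 0.16, adjusted p = 4.1e-06). In 621 neither differed from AH47A past the threshold (Ercc5 0.39 ± 0.20, adjusted p = 0.14; Polk 0.18 ± 0.17, adjusted p = 0.46). Between 621 and 287 the response differed for 7 of the 9 genes, beside 5102 of all 12321 genes. The log2 response was lower in 621 than in 287 for 6 of them and higher for 1.

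Poli rose in 287 and 621 and was not called in AH47A. In AH47A the 6 untreated libraries ran from 28.6 to 39.2 CPM (median 31.0) and the 6 nutlin libraries from 25.1 to 39.7 CPM (median 33.3), and the response was 0.04 ± 0.09 (adjusted p = 0.73). In 287 they ran from 30.5 to 35.0 CPM (median 33.0) and from 72.9 to 79.5 CPM (median 76.5), a rise of 1.22 ± 0.08 (adjusted p = 2.1e-13). In 621 Poli rose by 0.72 ± 0.09 (adjusted p = 7.6e-08). The F test of the untreated lines did not call Poli (adjusted p = 0.12). With line as an additive block the F test called Poli (adjusted p = 0.00018). That model takes each line's level over untreated and nutlin libraries together, so it does not test the untreated lines alone.

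Ddb2 rose by 0.74 ± 0.14 in AH47A, 1.33 ± 0.11 in 287 and 0.40 ± 0.12 in 621. Among untreated libraries the lines differed in 7 of the 9 genes, all but Polk and Poli, beside 79.3% of all genes. The calls of Rev1 (adjusted p = 0.035) and Xpc (adjusted p = 0.030) were lost when single untreated libraries of AH47A or 621 (Rev1, adjusted p up to 0.12) or of AH47A or 287 (Xpc, adjusted p up to 0.077) were left out. Poli was called without the untreated R270H library of 287 (adjusted p = 0.039). The untreated level of Ddb2 was lowest in AH47A, with 2.29 to 3.70 CPM against 5.08 to 6.38 in 287 and 6.83 to 8.01 in 621. These untreated ranges did not overlap. Ddb2 was called higher in 287 than in AH47A (0.95 ± 0.14, adjusted p = 7.9e-07) and higher in 621 than in AH47A (1.38 ± 0.13, adjusted p = 4.0e-10). Of all genes, 58.8% and 58.6% were called in these 2 comparisons. Rrm2b followed another order, rising by 0.44 ± 0.09 in AH47A, 0.86 ± 0.09 in 287 and 1.13 ± 0.09 in 621. It was highest untreated in 287, at 44.3 to 56.4 CPM, against 34.5 to 38.9 in AH47A and 29.6 to 35.6 in 621. Rev1 rose by 0.20 ± 0.06, 0.51 ± 0.06 and 0.25 ± 0.06 in AH47A, 287 and 621, and untreated and nutlin libraries separated fully only in 287. Its F test for different responses (adjusted p = 0.0055) did not hold without the untreated R246Q library of AH47A (adjusted p = 0.053) or the untreated G280 (adjusted p = 0.056) or I192S (adjusted p = 0.057) library of 287.

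Rev3l rose in 287 alone among the 3 lines tested (0.31 ± 0.05, adjusted p = 4.2e-06), with 0.00 ± 0.05 in AH47A and 0.05 ± 0.05 in 621, and its difference between lines passed the F test (adjusted p = 0.0012). Polh fell by 0.30 ± 0.05, 0.62 ± 0.05 and 0.36 ± 0.05 in AH47A, 287 and 621, with no overlap of untreated and nutlin libraries in any line. Xpc fell by 0.21 ± 0.07 in AH47A (adjusted p = 0.020) and had -0.15 ± 0.07 in 287 (adjusted p = 0.052) and -0.08 ± 0.07 in 621 (adjusted p = 0.37), with overlap in every line. The AH47A call of Xpc did not hold with scaling to library size only (-0.13, adjusted p = 0.15). Leaving out line 287 (-0.19, adjusted p = 0.084) or single control (untreated, adjusted p = 0.065; nutlin, adjusted p = 0.067), R246Q (adjusted p = 0.054 and 0.069) or V170M (adjusted p = 0.057 and 0.095) libraries of AH47A ended it too. In 287 Xpc passed the test when any of several libraries was left out, with an adjusted p down to 0.0080. Under that scaling the AH47A calls over all genes split into 3441 higher and 1864 lower, against 2635 and 2736 with TMM.

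**Figure D2:**
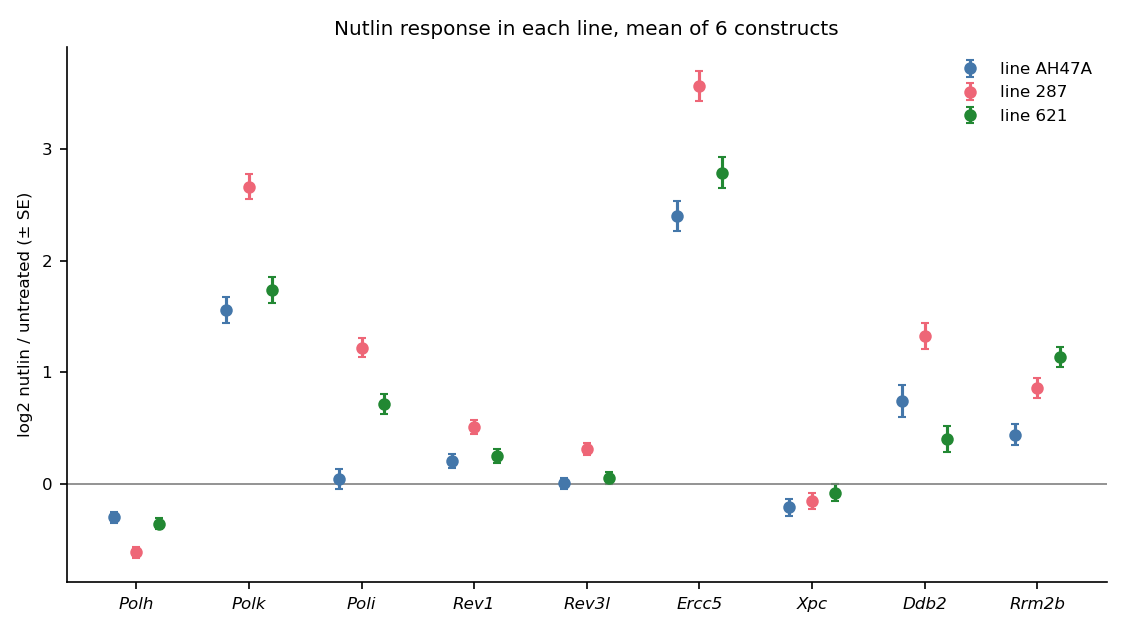
Log2 nutlin response (y axis) of each gene (x axis) in AH47A, 287 and 621, as the mean of 6 constructs with its standard error. The 287 points are highest for Ercc5 (3.56), Polk (2.66), Poli (1.22), Ddb2 (1.33), Rev1 (0.51) and Rev3l (0.31) and lowest for Polh (-0.62), while Rrm2b is highest in 621 (1.13).

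Expression of a mutant protein made no called difference to the 9 genes in untreated cells. The mean of 5 mutants differed from the control by -0.03 (Ddb2) to 0.14 (Poli) on the log2 scale, and edgeR called 0 of the 9 genes in the mean or in any single mutant, with 0 at an unadjusted p under 0.05. Over all genes, 0.0162% were called in the mean of 5 mutants and 0.00812% in each mutant. DESeq2 called 0 of the 9 as well. The standard errors of these differences in the mean of 5, from 0.05 for Polh to 0.17 for Ercc5, bound what could be seen.

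Under nutlin Ercc5, Polk, Rev1 and Rrm2b were lower in cells with mutant TRP53 than in control cells. In the mean of 5 mutants these 4 of the 9 genes were called lower and none higher, beside 16% of all genes called (8.76% lower). The median difference was -0.27 for the 9 and 0.00 for all genes. All mutants were set against the same 3 control libraries, so a value high in a control library enters each of these comparisons.

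Ercc5 after nutlin stood at 188 CPM in the AH47A control and at 65.0 to 98.9 CPM in its 5 mutants. In 287 it was at 353 CPM in the control and 162 to 280 CPM in the mutants, and in 621 at 136 CPM and 58.2 to 107 CPM. The control was above all 5 mutants in each line, and the mean of mutants was lower by a log2 difference of -0.87 ± 0.12 (adjusted p = 3.9e-05). Rev1 was likewise above all 5 mutants in each line, with 120.2 CPM against 75.4 to 91.5 in AH47A, 137 against 83.8 to 119 in 287 and 101 against 69.6 to 85.3 in 621 (-0.45 ± 0.06, adjusted p = 2.6e-05).

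Polk was at 125 CPM in the AH47A control against 45.0 to 71.9 in its mutants, a clear gap. In 287 the control had 203 CPM and the mutants 137 to 205, and in 621 the control had 100.4 CPM and the mutants 60.0 to 107. R270H exceeded the control in both of these lines. The mean difference was -0.63 ± 0.11 (adjusted p = 0.00037), and with line as an additive block it was -0.59 (adjusted p = 0.16). Rrm2b differed by -0.31 ± 0.10 (adjusted p = 0.026), with a gap in AH47A only, at 67.9 CPM against 42.4 to 53.9. Its call did not hold without AH47A (-0.18, adjusted p = 0.34) or 621 (-0.31, adjusted p = 0.11), nor without the control nutlin library of AH47A (-0.17, adjusted p = 0.37) or of 621 (-0.31, adjusted p = 0.099). With line as an additive block it was -0.30 (adjusted p = 0.31). Ercc5, Polk and Rev1 kept their calls in the mean of 5 mutants without any single line. Without a block for line none of the 4 was called (adjusted p = 0.60 for Rev1 and 0.9998 for the others), beside 0 over all genes.

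Polh stood at 0.13 ± 0.06 (adjusted p = 0.10), Ddb2 at -0.27 ± 0.12 (adjusted p = 0.15), and Poli, Rev3l and Xpc between -0.10 and -0.07. Cdkn1a and Mdm2, the gene of the p53 inhibitor, were also above all 5 mutants in the control nutlin library of each line, by mean differences of -0.87 ± 0.12 (adjusted p = 4.0e-05) and -0.74 ± 0.09 (adjusted p = 1.3e-05) for mutant minus control. Pcna, the sliding clamp that recruits translesion polymerases, went the other way (0.52 ± 0.06, adjusted p = 5.5e-06), as did Rrm2, the S-phase small subunit of ribonucleotide reductase (0.42 ± 0.08, adjusted p = 0.00073). As a difference in response, Mdm2 (-0.71 ± 0.14, adjusted p = 0.0092) and Pcna (0.56 ± 0.08, adjusted p = 0.0013) were called, and Cdkn1a (-0.21 ± 0.34, adjusted p = 0.82) and Rrm2 (0.34 ± 0.11, adjusted p = 0.081) were not. Untreated Cdkn1a stood at -0.66 ± 0.32 in the mutants, also not called (adjusted p = 1). The part of these genes in the result was not tested.

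The single mutants gave 3 called genes with G280, I192S and R246Q (Ercc5, Polk and Rev1), 2 with R270H (Ercc5 and Rev1) and 4 with V170M (Ercc5, Polk, Rev1 and Rrm2b). The share of all genes called was 10.5%, 2.66%, 6.06%, 3.64% and 17.6% in the same order of mutants. V170M had the lowest values, with Ercc5 at -1.20 ± 0.17 (adjusted p = 4.0e-05), Polk at -0.92 ± 0.15 (adjusted p = 0.00018), Rev1 at -0.62 ± 0.09 (adjusted p = 2.2e-05) and Rrm2b at -0.48 ± 0.13 (adjusted p = 0.0090). R270H had the values closest to 0 for Ercc5 (-0.64 ± 0.16, adjusted p = 0.030) and Polk (-0.32 ± 0.15, adjusted p = 0.24). The F test among the 5 mutants under nutlin called none of the 9 genes with edgeR (Polk adjusted p = 0.26, Ercc5 adjusted p = 0.39) and 0.0243% of all genes. At an unadjusted p under 0.05 were 2 of the 9, beside 1485 of all 12321 genes. DESeq2 also called 0 of the 9, beside 169 over all genes. Without AH47A the edgeR F test called Polk (adjusted p = 0.023) and Ercc5 (adjusted p = 0.027), beside 63 over all genes. In untreated cells and in the response, the F test among mutants called 0 of the 9 genes with either tool, with 0 at an unadjusted p under 0.05 in edgeR, beside 0.0812% and 0% of all genes.

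The calls of Ercc5, Polk and Rev1 with V170M under nutlin held without any single line or library. That of Rrm2b did not hold without AH47A (adjusted p = 0.051), 621 (adjusted p = 0.12), the control library of AH47A (adjusted p = 0.11) or the V170M library of 621 (adjusted p = 0.074). Without line 621 none of the G280 calls held (adjusted p from 0.072 to 0.19), and without line 287 none of the R246Q calls did (adjusted p from 0.094 to 0.11). Polk with G280 also lost its call without the control library of AH47A (adjusted p = 0.25) or the G280 library of 621 (adjusted p = 0.17). Polk with R246Q lost it without AH47A (adjusted p = 0.065), its control library (adjusted p = 0.12) or the R246Q library of AH47A (adjusted p = 0.052) or 287 (adjusted p = 0.063). All calls with I192S and R270H were lost without AH47A, its control library or the mutant's own library there (adjusted p from 0.063 to 0.18 and from 0.060 to 0.21). They were also lost without 287 for I192S (adjusted p from 0.093 to 0.13) and without 621 for R270H (adjusted p = 0.11 for Ercc5 and 0.13 for Rev1). With line as an additive block 2 genes were called with V170M and 0 with each other mutant, and without a block 0 in all.

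**Figure D3:**
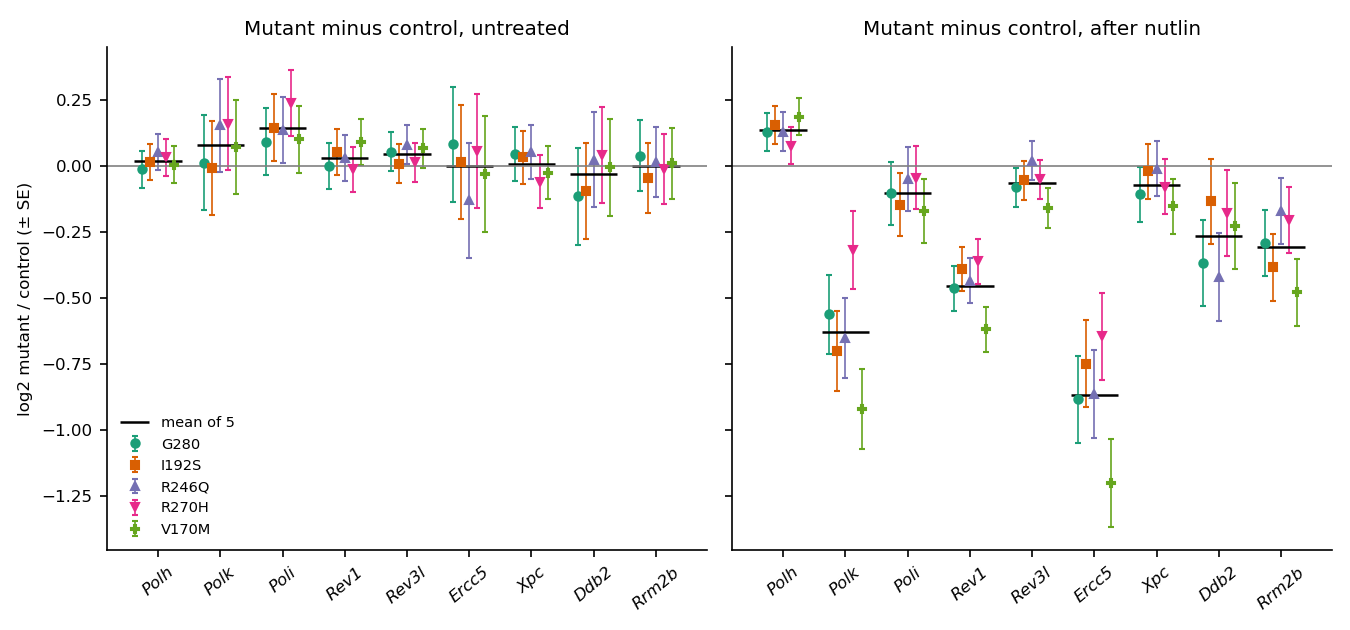
Log2 difference of each mutant from the control (y axis, with standard error) for the 9 genes, untreated (left) and after nutlin (right), with a black bar at the mean of 5 mutants. Untreated points lie around 0, and after nutlin the bars reach -0.87 for Ercc5, -0.63 for Polk and -0.45 for Rev1.

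Tested as a difference in response (mutant nutlin minus untreated, less the same in the control), the mean of 5 mutants was lower for Ercc5 (-0.87 ± 0.21, adjusted p = 0.022), Polk (-0.71 ± 0.18, adjusted p = 0.028) and Rev1 (-0.48 ± 0.09, adjusted p = 0.0067), beside 3.38% of all genes called. With V170M the same 3 genes were called (Ercc5 -1.17 ± 0.27, adjusted p = 0.019; Polk -0.99 ± 0.23, adjusted p = 0.018; Rev1 -0.71 ± 0.12, adjusted p = 0.0028), beside 3.64% of all genes. With G280, I192S, R246Q and R270H edgeR called 0 of the 9 genes, beside 0.179%, 0.00812%, 0.0243% and 0% of all genes. In each of these mutants 3 of the 9 had an unadjusted p under 0.05, beside 1542, 963, 1392 and 1325 of all 12321 genes. DESeq2 called 2 of the 9 with G280 and 2 with R246Q, beside 243 and 133 over all genes. All 3 calls in the mean were lost without line 287 or without line 621, and those of Ercc5 (adjusted p = 0.11) and Polk (adjusted p = 0.14) without AH47A. Ercc5 and Polk also lost theirs without the control's AH47A library, untreated (adjusted p = 0.13 and 0.10) or nutlin (adjusted p = 0.089 and 0.15), or its untreated 287 library (adjusted p = 0.091 and 0.13), and Polk without its untreated 621 library (adjusted p = 0.065). With V170M all 3 were lost without 287 or 621 (adjusted p from 0.051 to 0.23). Ercc5 with V170M was also lost without single control libraries of AH47A or 287 or single V170M libraries of any line (adjusted p from 0.051 to 0.069). Polk with V170M was lost without the untreated control library of AH47A or 287 or the untreated V170M library of 287 (adjusted p from 0.051 to 0.068). With line as an additive block, or with none, 0 of the 9 were called in either comparison, and 0 over all genes. The Rev1 response was 0.72 ± 0.09 in the control and 0.02 ± 0.09 with V170M (adjusted p = 0.92), and the Ercc5 response was 3.64 ± 0.20 and 2.47 ± 0.19 (adjusted p = 1.1e-09).

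Within single lines, a model with a mutant-by-line term, chosen after seeing the data, gave the mean of 5 mutants minus control under nutlin. It rests on 1 control library per line and treatment, which is assumed to vary like the libraries of the mutants, so the values are given as descriptions with their standard errors and no call is read from them. In AH47A the values were -1.14 ± 0.15 for Polk, -1.18 ± 0.20 for Ercc5 and -0.51 ± 0.11 for Rev1. In 287 they were -0.30 ± 0.15, -0.66 ± 0.20 and -0.48 ± 0.11, and in 621 -0.38 ± 0.16, -0.74 ± 0.22 and -0.36 ± 0.12, in the same order of genes.

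In the control lines the lists of other repair genes held called genes in both directions, beside 26.9% higher and 26.8% lower over all genes. Of 19 partners in translesion synthesis, 11 rose and 7 fell, with a median response of 0.26 against -0.02 over all genes. The largest rises were of Poln, a further translesion polymerase, from 2.64 ± 0.642 to 10.3 ± 1.66 CPM (adjusted p = 7.7e-07), Rchy1, a ubiquitin ligase also known as Pirh2 (1.88, adjusted p = 3.1e-11), and Primpol, a primase-polymerase (1.11, adjusted p = 6.1e-06). Rad18, the ligase that ubiquitinates PCNA, rose by 0.51 ± 0.09 (adjusted p = 2.0e-05). Pcna fell by 0.96 ± 0.08 (adjusted p = 4.2e-11), Mad2l2, the partner subunit of Rev3l, by 0.52 ± 0.12 (adjusted p = 0.00067) and Shprh by 0.47 (adjusted p = 4.0e-06).

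Of 30 other excision repair genes 7 rose and 11 fell (median -0.13). Xpa, which verifies the lesion, rose by 1.02 (adjusted p = 3.8e-07), Mnat1 of the TFIIH kinase module by 0.76 (adjusted p = 9.2e-07) and Uvssa by 0.45 (adjusted p = 0.023). Rpa3 fell by 0.98 (adjusted p = 0.00026), Elof1 by 0.95 (adjusted p = 3.2e-08) and Rpa2 by 0.75 (adjusted p = 2.6e-08). Among the partners of Xpc, Cetn2 fell by 0.55 ± 0.10 (adjusted p = 2.2e-05), and Rad23b was at 0.11 ± 0.07 (adjusted p = 0.20). Ddb1, which binds Ddb2, was at -0.24 ± 0.12 (adjusted p = 0.088).

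Of 17 tested deoxynucleotide supply genes (18 listed), 2 rose and 11 fell (median -0.28). The mitochondrial kinases Tk2 (0.97, adjusted p = 0.00044) and Dguok (0.79, adjusted p = 0.00014) rose, as Rrm2b did. Dck fell by 1.16 (adjusted p = 1.0e-10), Dut by 1.00 (adjusted p = 1.3e-08) and Shmt1 by 0.97 (adjusted p = 4.1e-10). Rrm2, the paralog of Rrm2b, fell by 0.89 ± 0.10 (adjusted p = 2.1e-08), from 199.8 ± 40.2 to 107.6 ± 19.8 CPM, and Rrm1, the large subunit, fell by 0.25 ± 0.05 (adjusted p = 0.00017).

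Of 28 tested base excision and mismatch repair genes (29 listed), 3 rose and 10 fell (median -0.16), with Aptx (0.46), Polb (0.44) and Pms1 (0.42) rising and Ung falling by 1.33, Fen1 by 1.02 and Exo1 by 1.01. Of 18 other DNA polymerase genes, a list that also holds Poln and Polb, 2 rose and 8 fell (median -0.21), among them Pole2, which fell by 1.14, Polg by 0.49 and Pola2 by 0.47. Under nutlin, the mean of 5 mutants against the control gave 7 higher and 1 lower of the 17 deoxynucleotide supply genes. It gave 4 higher and 2 lower of the 19 translesion partners, and 5 higher and 2 lower of the 30 excision repair genes. Of the 28 base excision and mismatch repair genes 5 were higher and 0 lower, and of the 18 other DNA polymerases 4 and 0, beside 7.22% higher and 8.76% lower over all genes.

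**Figure D4:**
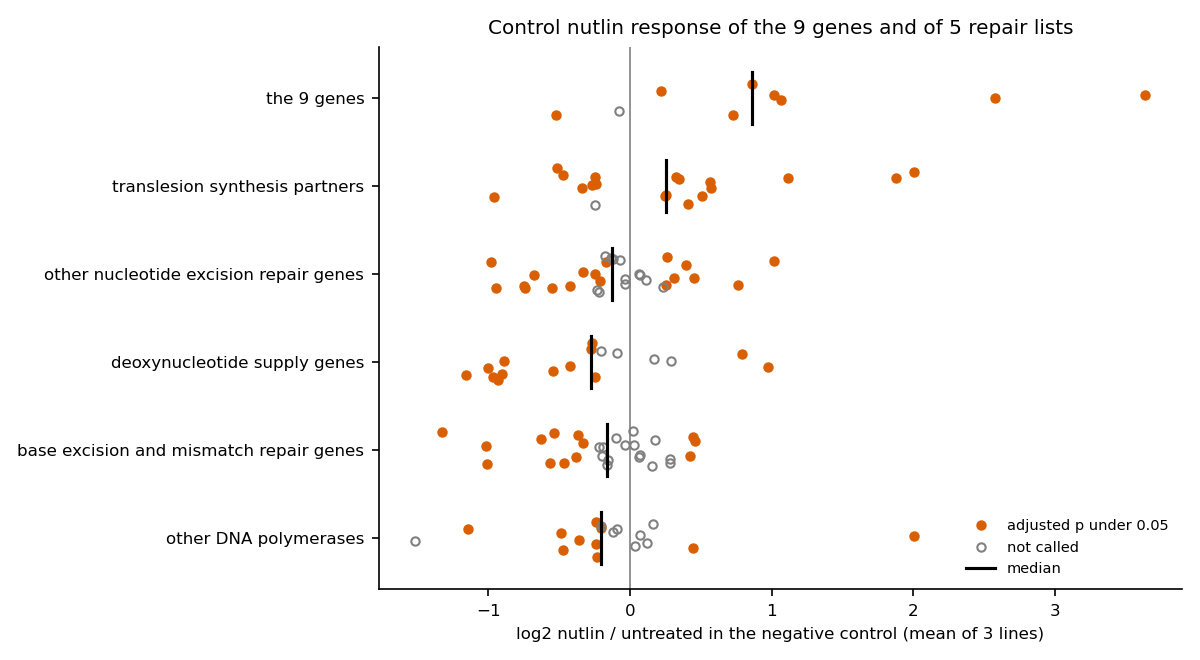
Log2 nutlin response in the control (x axis, mean of 3 lines) of the 9 genes and of the genes of 5 repair lists, 1 point per gene, filled where the adjusted p is under 0.05, with vertical bars at the medians and vertical scatter for legibility only. The median is 0.86 for the 9 genes and runs from -0.28 to 0.26 over the lists, all chosen with earlier results of these data known.

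Over the 36 libraries, Polk and Ercc5 followed each other with a Pearson r of 0.975 of log2 CPM, and Polk and Polh ran opposite with -0.880. These values are descriptions, since the libraries share lines, constructs and treatment. The genes most like Ercc5 were Rhbdd1 (r = 0.992), Rnf169 (r = 0.990) and Notch1 (r = 0.987), and those most like Polk were Pdcl (r = 0.986), Ei24 (r = 0.983) and Exoc4 (r = 0.982). Polh was most like the glycolytic genes Tpi1 (r = 0.969) and Ldha (r = 0.967), and Bri3bp (r = 0.963). Poli was closest to Ncoa2 (r = 0.961), Zc3hav1 (r = 0.959) and Fbxo38 (r = 0.958). Rrm2b was closest to Nfatc3 (r = 0.956), Ets2 (r = 0.951) and Hmgxb4 (r = 0.951), and Ddb2 to Cd81 (r = 0.952), Traf6 (r = 0.950) and Lmbrd1 (r = 0.947). Weaker likeness was found for Rev1 with Fbxw9 (r = 0.912), Grb10 (r = 0.890) and Acad11 (r = 0.890), for Rev3l with Msantd2 (r = 0.865), Pxk (r = 0.845) and Dennd5a (r = 0.842), and for Xpc with Wdtc1 (r = 0.793), Vpreb3 (r = 0.782) and Prob1 (r = 0.777).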

How the data were processed

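RNA of 36 libraries was sequenced, and the authors deposited whole-number read counts per gene for 27179 genes. The submitters' processing notes name featureCounts, bcl2fastq 1.8.4 and the build mm10/GRCm38. Aligner, annotation and strandedness: not given in the sources used here. The per-sample files held the same values as the series table in 36 of 36 cases. The deposited gene length served for levels per kilobase.

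The tests used R 4.3.3 with edgeR 4.0.16 (TMM, filterByExpr with a minimum count of 10, robust quasi-likelihood fit), over 12321 genes with 99.94% of counts, after 14858 were filtered out. The model held 12 groups, cell line and line by treatment, with 20 residual degrees of freedom and a biological coefficient of variation of 9.68%. The lines pair the libraries: deviations of same-line libraries from their group means correlated in all 198 pairs (r from 0.629 to 0.929). Benjamini-Hochberg adjustment ran over all genes tested, and the procedure was tested on simulated data. The mutant-by-line model had 16 residual degrees of freedom and a coefficient of variation of 10.1%. CPM uses TMM library sizes. Gene positions and promoters are from RefSeq (GRCm38.p6), which matched 25275 genes by gene number, and exons from GENCODE. Alternatives were library-size scaling, RLE, DESeq2 1.42.0, no filter, other line terms, only the groups compared and leaving out lines or libraries.

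The members and lists were chosen with earlier results of these data known. Named beside the 9 genes were their direct partners, Cdkn1a, Mdm2 and Trp53, up to 3 called genes with the largest rise and fall of each list, and the 3 genes most correlated with each member.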

Additional observations from a re-analysis of the deposited data

Results flagged for a closer look

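Differences between the 3 lines in nutlin response stood out for 8 of the 9 genes, by an F test on the line-by-treatment terms (edgeR, adjusted over all genes). The adjusted p was 2.65e-08 for Poli, 3.85e-06 for Polk, 3.64e-05 for Ercc5, 7.90e-05 for Ddb2, 0.000206 for Rrm2b, 0.000728 for Polh, 0.00122 for Rev3l and 0.00547 for Rev1. Since 60.3% of all genes passed the same test, such a difference is common in these libraries. Each line was represented by 6 constructs per treatment, which are not independent cultures of 1 construct.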

How the results depend on the processing

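Of 6479 values of single genes set against an alternative, over 48 settings, 6207 kept their call or lack of one, 229 lost the call and 43 gained one. Direction was compared only for values called in either setting, F tests aside, and 0 of these reversed. Each replicate number stands for a line. Without the replicate block for line, the number of the 9 genes called fell from 8 to 4 for the control response, from 7 to 2 for G280, I192S, R246Q and R270H and from 6 to 1 for V170M, and to 0 for every mutant-minus-control comparison. With line as an additive block it was 4 for the R246Q response, 2 for the mean of 5 mutants (4 in the main model) and for V170M under nutlin, and 0 for the other mutants under nutlin and for both response differences (3 in the main model). With only the groups compared, I192S and R270H under nutlin gave 0, and without a filter R270H gave 1. DESeq2 gave 2 for the response difference of G280 and of R246Q (0 with edgeR), beside 243 and 133 over all genes (22 and 3 with edgeR). Leaving out a line or library gave 3 to 7 called genes for the G280 response, 4 to 8 for R246Q and R270H and 2 to 7 for V170M. Under nutlin it gave 0 to 4 for G280, 0 to 3 for I192S and R246Q and 0 to 2 for R270H, 0 to 3 for the response differences of the mean and of V170M, and 0 to 2 for the F test of 5 mutants. Over all genes, the control response called 6618 genes, 1423 without the block and 2942 with only control libraries. The mean of 5 mutants under nutlin called 1969, 123 with the additive block and 0 without a block, and its response difference 416, 0 and 0, and 657 with DESeq2. Without AH47A, 287 or 621 the mean of 5 mutants under nutlin called 1200, 1055 and 982 genes and its response difference 64, 3 and 75. Under nutlin V170M called 2168 genes, 792 without 287, G280 1293, 34 without 621, R246Q 747, 83 without 287, R270H 448, 20 without 621, and I192S 328, 3 without 287. The V170M response difference called 448, 2 without 287. The control response called 3997 without 287. The cause was not tested. Low counts limit Ddb2, with 17 to 31 per untreated AH47A library.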
